A study of Mus musculus with 24 samples.

Results

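The values below are those of 10 mouse transcription factor genes known from pluripotent cells and from the first cleavage stages, out of 55471 annotated genes in the deposited tables. The members were listed by symbol and joined to Ensembl identifiers: *Pou5f1*, *Sox2*, *Nanog*, *Klf4*, *Klf5*, *Klf17*, *Nr5a2*, *Tfap2c*, *Sall4* and *Esrrb*. The rule that lists them uses no measured value. On GRCm38 the core factors are *Pou5f1* at chr17:35506018-35510772 (plus strand), *Sox2* at chr3:34650405-34652461 (plus strand) and *Nanog* at chr6:122707489-122714633 (plus strand). The Krüppel-like factors are *Klf4* at chr4:55527143-55532466 (minus strand), *Klf5* at chr14:99298691-99315036 (plus strand) and *Klf17* at chr4:117757836-117765648 (minus strand). The others are *Nr5a2* at chr1:136842571-136960448 (minus strand), *Tfap2c* at chr2:172549593-172558622 (plus strand), *Sall4* at chr2:168748332-168767943 (minus strand) and *Esrrb* at chr12:86361117-86521628 (plus strand).

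The study followed the methylation of adenosine in RNA (m6A) across the maternal-to-zygotic transition of B6D2F1 mice. SLIM-seq, an m6A immunoprecipitation for small amounts of RNA, was performed on MII oocytes, late 1-cell (L1C) embryos and late 2-cell (L2C) embryos, with 3 IP and 3 input libraries at each stage. An input holds RNA that did not pass over the antibody and is also the RNA-seq of its stage. In a second experiment *Ythdc1*, which encodes a nuclear reader of m6A, was targeted by cytoplasmic injection of zygotes with Cas13d mRNA and crRNAs (KD). Control embryos (Ctrl) received Cas13d mRNA only, so the groups differ by the presence of any crRNA as well as by its target. Both were sampled at L2C, with 3 libraries each. Nothing in the labels says whether replicates came from separate females, so P values measure the spread between these libraries.

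In the mouse, the oocyte loads mRNAs that are degraded after fertilization, while the embryonic genome is switched on in a minor wave at the 1-cell stage and a major wave at the 2-cell stage. Pou5f1 (OCT4), Sox2 and Nanog are the core factors of the pluripotent state, and Klf4, Klf5, Esrrb, Nr5a2, Tfap2c and Sall4 are partners that bind many of the same enhancers. Klf17 is a Krüppel-like factor of oocytes and early embryos, and Nr5a2 is an orphan nuclear receptor known as an activator of early zygotic genes. The methyl mark itself is placed on part of the sites with the core GGACT or close relatives of it, and readers such as Ythdc1 bind it.

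Total estimated counts ranged from 11107175 to 39739640 per SLIM-seq library. The KD experiment holds 8696476 to 14500548 exon counts in the 5 libraries that cover the whole annotation. KD replicate 3 ends on chromosome 7, as does the merged table of all 6 libraries, so *Pou5f1*, *Klf5* and *Esrrb* were compared in 5 libraries only (2 KD, 3 Ctrl). All 10 oocyte markers were above 1 CPM, a count scaled to the library total, in the inputs of each stage and in Ctrl and KD embryos. Their summed level was 10300 to 11300 CPM in MII inputs, 5970 to 6390 CPM at L1C and 825 to 862 CPM at L2C, and that of 10 2-cell markers was 30.1 to 35.7, 112 to 163 and 914 to 1170 CPM. Of 12 markers of cumulus and granulosa cells, 3 to 7 were above 1 CPM in the inputs of a stage, and the list summed to 60.4 to 68.1 CPM at MII, 38.1 to 40.3 at L1C and 6.86 to 7.64 at L2C. *Ptx3* was at 0 in every input and *Foxl2* at 0 at L2C. The part of such cells in the results was not tested.

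Levels of different genes were compared per length, as the TPM values deposited by the authors, which divide by the whole gene span with its introns. *Klf17* was the highest member at each of the 3 stages, with 1270 ± 276 TPM (SD, n = 3) in MII oocytes, 840.0 ± 118 TPM in L1C embryos and 317 ± 32.7 TPM in L2C embryos. In MII oocytes *Pou5f1* (487 ± 39.8 TPM), *Sall4* (248 ± 25.6 TPM), *Tfap2c* (112 ± 12.9 TPM) and *Esrrb* (4.72 ± 0.437 TPM) followed, and the libraries of each lay apart from those of the next. *Klf4* at 2.06 ± 0.501 TPM, *Sox2* at 1.48 ± 0.184 TPM and *Nr5a2* at 1.42 ± 0.0991 TPM overlapped with their neighbours in that order, and *Klf5* and *Nanog* were the lowest, below 0.15 TPM in every MII input. At L2C the order below *Klf17* was *Tfap2c* (95.5 ± 4.31 TPM), *Pou5f1* (90.3 ± 4.62 TPM), *Sall4* (61.7 ± 1.9 TPM), *Klf5* (7.56 ± 0.0545 TPM), *Klf4* (7.02 ± 0.159 TPM), *Nr5a2* (4.8 ± 0.11 TPM), *Esrrb* (1.05 ± 0.0722 TPM), *Nanog* (0.631 ± 0.179 TPM) and *Sox2* (0.495 ± 0.32 TPM). *Tfap2c* and *Pou5f1* overlapped there, as did *Nanog* and *Sox2*. Division by the length of annotated exons instead of the span moved *Nr5a2* to the fifth place at L2C, at 21.3 ± 0.914 CPM per kilobase of exon, and *Esrrb* to the sixth place at 6.19 ± 0.548. Both are genes with long introns. The same division put *Sall4* (48.0 ± 2.31) above *Pou5f1* (39.9 ± 1.62) at L2C, and moved *Klf5* to place 7 and *Klf4* to place 8.

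The RNA changes of the members were read from the 9 inputs, as CPM scaled by TMM over these 9 libraries. Between MII and L2C some members rose and others fell, in shares near those of all genes tested. *Sox2* did not pass the filter on low counts, with 3 to 9 counts per input, and the other 9 members were tested. From MII to L2C 5 of the 9 were higher (*Klf5*, *Nanog*, *Klf4*, *Nr5a2* and *Tfap2c*), beside 47.5% of all genes tested, and 4 were lower (*Pou5f1*, *Esrrb*, *Sall4* and *Klf17*), beside 37.1%. *Klf5* and *Nanog* passed the filter only through the L2C inputs, where they are high, so their higher calls are a description and not support. In TPM *Tfap2c* went the other way, from 112 ± 12.9 at MII to 95.5 ± 4.31 at L2C, with overlapping libraries. Its place among the higher members thus depends on the scale. The median log2 change was 0.50 for the 9 members and 0.40 for all genes tested, so this scale sets the middle of all genes above 0. The median of the members stayed the same with *Nanog* set to its lower bound. CPM are shares of a library, and fewer cells and less RNA per cell cannot be told apart in such bulk samples.

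Step by step, 2 of the 9 were higher at L1C than at MII (*Nanog* and *Klf5*, beside 31.9% of all genes) and 4 were lower (*Esrrb*, *Sall4*, *Pou5f1* and *Tfap2c*, beside 24.3%). With only the MII and L1C inputs in the fit, *Nanog* and *Klf5* did not pass the filter on low counts. From L1C to L2C, 5 were higher (*Klf5*, *Klf4*, *Nr5a2*, *Nanog* and *Tfap2c*, beside 44.1%) and 2 were lower (*Klf17* and *Pou5f1*, beside 38.8%). In both steps *Klf5* and *Nanog* are counted with the limit given above.

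**Figure D1:**
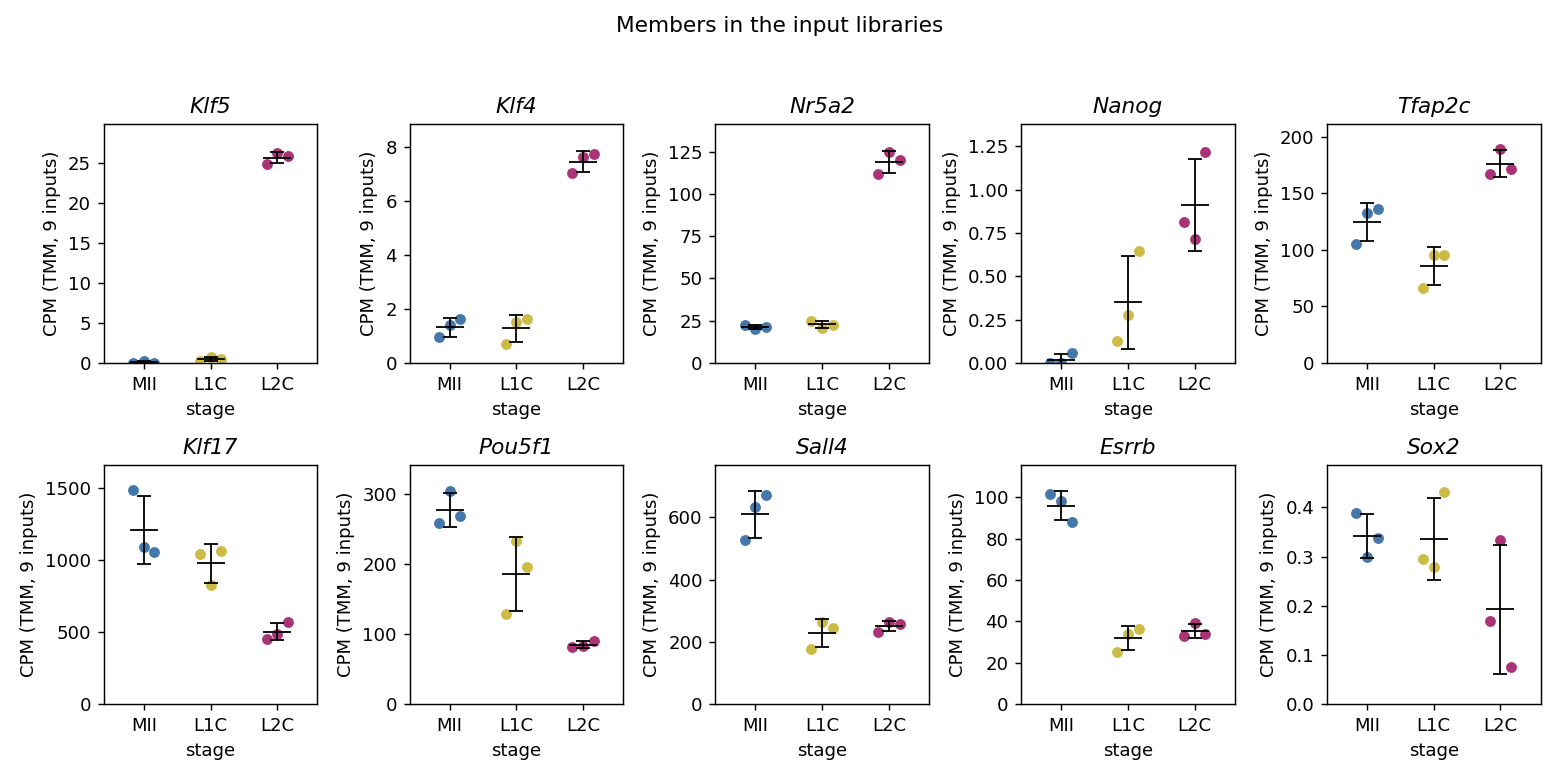
CPM (TMM over the 9 inputs, axes from 0 and different for each gene) of the 10 members in the 3 input libraries of each stage; points are libraries, the long dash is the mean and the bar its SD. The upper row holds *Klf5*, *Klf4*, *Nr5a2*, *Nanog* and *Tfap2c*, with L2C inputs above MII inputs. In the lower row *Klf17*, *Pou5f1*, *Sall4* and *Esrrb* have L2C inputs below MII inputs, and *Sox2* stays under 0.44 CPM in every library. The share of all genes whose stages separate in this way was not counted.

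Krüppel-like factors were found on both sides. *Klf5*, a zinc finger factor of the early trophectoderm and inner cell mass, had 0, 0.3 and 0 CPM in MII inputs, 0.212, 0.743 and 0.539 CPM at L1C and 24.8, 26.2 and 25.8 CPM at L2C. The L2C inputs lay far above all others, while MII and L1C overlapped. *Klf5* passed the filter only through the L2C inputs, so its calls carry the limit given above. From L1C to L2C *Klf5* rose by 5.69 ± 0.41 on the log2 scale (SE, edgeR adjusted p = 8.6e-09). The change from MII to L2C was 7.95 ± 0.52 (edgeR adjusted p = 2.2e-09), and it was 12.28 without MII input 2, the one MII library with any *Klf5* counts, and it was 7.28 without MII input 1. From MII to L1C *Klf5* was called higher (2.25 ± 0.78, edgeR adjusted p = 0.023), a call that was lost without MII input 1 or 3 or L1C input 2 or 3 (edgeR adjusted p = 0.053 to 0.099). It was 1.60 without MII input 1 and 6.59 without MII input 2, where the remaining MII inputs have no count and the fitted value depends on the prior count of the fit. *Klf4*, which can reprogram somatic cells together with Pou5f1 and Sox2, had 0.948, 1.4 and 1.63 CPM at MII, 0.719, 1.53 and 1.62 CPM at L1C and 7.03, 7.61 and 7.75 CPM at L2C. It rose by 2.54 ± 0.30 from L1C to L2C (edgeR adjusted p = 1.7e-06), and its MII and L1C inputs overlapped. *Klf17* showed the other course, with 1485, 1095 and 1059 CPM at MII, 1046, 825 and 1063 CPM at L1C and 456, 485 and 571 CPM at L2C. All L2C inputs lay below all L1C inputs (log2 -0.96 ± 0.16, edgeR adjusted p = 4.8e-05), whereas MII and L1C overlapped (log2 -0.31 ± 0.15, edgeR adjusted p = 0.099).

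*Nr5a2* and *Esrrb*, both orphan nuclear receptors, moved in opposite directions. *Nr5a2* held 22.3, 19.98 and 21.2 CPM in MII inputs and 24.9, 20.9 and 22.6 CPM at L1C, which overlap. At L2C it was at 112, 125 and 120.3 CPM, a rise of 2.38 ± 0.13 over L1C on the log2 scale (edgeR adjusted p = 3.3e-10). *Esrrb* fell early, from 102, 98.0 and 88.1 CPM at MII to 25.4, 34.1 and 36.2 CPM at L1C (log2 -1.59 ± 0.15, edgeR adjusted p = 8.8e-07). At L2C it had 33.2, 39.2 and 34.0 CPM, which overlap with L1C (log2 0.15 ± 0.15, edgeR adjusted p = 0.34).

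*Sall4*, a zinc finger partner of Pou5f1, also fell before L1C. It was at 526, 634 and 671 CPM in MII inputs, 179, 264 and 244 CPM at L1C and 234, 264 and 258 CPM at L2C. The log2 change was -1.42 ± 0.15 from MII to L1C (edgeR adjusted p = 3.1e-06) and 0.14 ± 0.15 from L1C to L2C, where the groups overlap (edgeR adjusted p = 0.4). *Tfap2c*, an AP-2 factor of the trophectoderm lineage, dipped and rose again: its levels were 106, 133 and 136 CPM at MII, 66.4, 95.2 and 95.7 CPM at L1C and 167, 190.0 and 172 CPM at L2C. None of the 3 stages overlapped. It fell by 0.54 on the log2 scale to L1C (SE 0.15, edgeR adjusted p = 0.0081) and rose by 1.04 ± 0.15 to L2C (edgeR adjusted p = 2e-05). The net change from MII to L2C was 0.50 ± 0.15 (edgeR adjusted p = 0.0075), close to the 0.40 of the median gene, and it was not called without MII input 1 (0.37, edgeR adjusted p = 0.054). In TPM its MII and L2C inputs overlapped, with the lower mean at L2C.

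Of the 3 core factors, only *Pou5f1* was abundant in the oocyte. *Pou5f1* had 259, 305 and 269.5 CPM at MII, 129, 233 and 196.5 CPM at L1C and 81.7, 82.7 and 90.7 CPM at L2C. The stages did not overlap, and the log2 change was -0.58 ± 0.17 from MII to L1C (edgeR adjusted p = 0.011) and -1.13 ± 0.18 from L1C to L2C (edgeR adjusted p = 3.2e-05). The first of these was at an edgeR adjusted p of 0.05 without MII input 2. The antisense gene *Gm19553* overlaps *Pou5f1* and covers 14.1% of its exon bases, and *Pou5f1* took 71.6% to 88.5% of the counts of the pair in the inputs. With the counts of both summed, the changes were -0.59 and -1.19. *Nanog* was near 0 at the start, with 0, 0 and 1 counts in MII inputs, and had 3, 6 and 12 counts at L1C and 24, 15 and 48 counts at L2C. Against a floor of 3 counts in each MII library (0.149 CPM) it was at least 2.35-fold higher at L1C and at least 6.11-fold higher at L2C. Both comparisons were called (edgeR adjusted p = 0.0056 and 6.5e-05). *Nanog* passed the filter only through the L2C inputs, where it is high, so these calls are a description and not support. The first bound rests on L1C input 3, without which it was 1.36-fold. The step from L1C to L2C (1.44 ± 0.56, edgeR adjusted p = 0.028) was not called without L1C input 1 or 2 or L2C input 1 or 3 (edgeR adjusted p = 0.052 to 0.14), and was 2.16 without L1C input 3. *Sox2* had 9, 6 and 6 counts in the MII inputs, 7, 6 and 8 in those of L1C and 5, 7 and 3 in those of L2C, which overlap at this depth. The long RNA *Sox2ot* spans the *Sox2* gene and held 296 to 1478 counts per input.

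The step of each member between stages can be set beside its gene start. Of the 10 members, 7 have 1 or 2 start sites in the RefSeq promoter table of GRCm38.p6, which holds 250 bases before and 50 after each start. *Klf5*, *Tfap2c* and *Sall4* have none there. The promoters of 2 members that rose and 2 that fell are given 5′ to 3′, with GGGCGG and TATAAA on either strand in capitals. They are *Klf4* (chr4:55532426-55532725, minus strand), the outer start of *Nr5a2* (chr1:136960399-136960698, minus strand), *Klf17* (chr4:117765617-117765916, minus strand) and the outer start of *Pou5f1* (chr17:35505782-35506081, plus strand).
Klf4: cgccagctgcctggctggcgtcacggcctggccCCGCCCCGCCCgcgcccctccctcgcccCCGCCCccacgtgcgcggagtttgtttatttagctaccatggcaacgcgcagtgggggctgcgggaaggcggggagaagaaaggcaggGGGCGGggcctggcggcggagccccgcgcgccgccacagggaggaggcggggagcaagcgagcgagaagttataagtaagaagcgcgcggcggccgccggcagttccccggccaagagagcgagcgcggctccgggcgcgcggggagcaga
Nr5a2: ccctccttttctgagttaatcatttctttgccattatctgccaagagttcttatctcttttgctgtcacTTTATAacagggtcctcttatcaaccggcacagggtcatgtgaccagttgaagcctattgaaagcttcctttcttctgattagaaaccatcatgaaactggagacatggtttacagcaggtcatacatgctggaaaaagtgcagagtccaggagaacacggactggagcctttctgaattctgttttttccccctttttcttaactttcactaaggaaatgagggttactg
Klf17: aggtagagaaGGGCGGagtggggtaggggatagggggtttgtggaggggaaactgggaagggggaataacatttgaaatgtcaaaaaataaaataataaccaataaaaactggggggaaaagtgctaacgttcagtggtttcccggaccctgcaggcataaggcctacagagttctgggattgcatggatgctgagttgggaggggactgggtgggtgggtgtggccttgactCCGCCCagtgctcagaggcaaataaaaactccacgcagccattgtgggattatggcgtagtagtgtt
Pou5f1: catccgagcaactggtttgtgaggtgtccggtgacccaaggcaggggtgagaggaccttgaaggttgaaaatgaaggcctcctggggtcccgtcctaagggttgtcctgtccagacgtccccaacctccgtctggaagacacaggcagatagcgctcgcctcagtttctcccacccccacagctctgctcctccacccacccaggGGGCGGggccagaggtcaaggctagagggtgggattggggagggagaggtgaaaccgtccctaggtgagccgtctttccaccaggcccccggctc
GGGCGG, the GC box, occurred 4 times in the *Klf4* promoter, 2 times in that of *Klf17* and 1 time in that of *Pou5f1*, and 35.7% of the 32851 promoters in the table hold it. TATAAA occurred in the outer *Nr5a2* promoter and in 13.6% of all promoters. The CG dinucleotide occurred 40 times in the *Klf4* window, 11 times in that of *Pou5f1*, 6 times in that of *Klf17* and 2 times in that of *Nr5a2*, against a median of 7. Of all promoters, 96.1% hold fewer CG than that of *Klf4* and 14.1% fewer than the outer one of *Nr5a2*. The second *Nr5a2* start has 7 CG and no TATAAA, and both starts of *Nanog*, which also rose, have 4 CG. The second *Pou5f1* start has 6 CG and no GGGCGG, and both starts of *Esrrb*, which fell, have 7 CG and no GGGCGG. Which start the embryo used was not measured.

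The study took genes as part of the major wave where the ratio of L2C to L1C TPM exceeded 5. With 0.1 added here to each mean, *Klf5* was the 1 member that passed, at 25.5, beside 12.1% of all mRNAs, and it was also the 1 member with nothing added. *Klf4* had a ratio of 4.06 and *Nr5a2* of 3.63, while *Nanog* had 1.7 and *Tfap2c* 1.51.

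Each member tested in the inputs, so all but *Sox2*, was matched to the protein-coding gene outside the list with the most similar course over the 9 inputs, by the root mean square difference of centred log2 CPM. *Dcun1d3* was nearest to *Nr5a2* (0.068, with mean CPM of 16.5, 18.5 and 99.4 at MII, L1C and L2C) and *Sap130* nearest to *Esrrb* (0.069, with 531, 185 and 199 CPM). *Zmynd8* was nearest to *Tfap2c* (0.072), *Cdk2ap2* to *Sall4* (0.076), *Sptlc1* to *Klf17* (0.089) and *Zfp575* to *Pou5f1* (0.094). Matches were less close for *D8Ertd738e* to *Klf4* (0.12), *Angptl6* to *Nanog* (0.16) and *Btbd19* to *Klf5* (0.2). *Klf4*, *Nanog* and *Klf5* have few counts at MII, and the part of this in the distances was not tested.

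Other genes of the same setting were taken from 3 lists. Of 18 tested pluripotency partners, 13 were higher and 4 lower at L2C than at MII, with a median log2 change of 4.19, beside 47.5% higher, 37.1% lower and a median of 0.40 over all genes tested. *Dppa4*, a chromatin factor of pluripotent cells, rose from 0.423 to 195 CPM (log2 8.87 ± 0.28, edgeR adjusted p = 2.2e-12) and *Tbx3* from 13.7 to 184 CPM. *Stat3*, the effector of LIF signalling, fell from 467 to 63.4 CPM and *Lin28a*, an RNA-binding protein, from 156 to 50.3 CPM. Of 10 tested trophectoderm and primitive endoderm factors 5 were higher and 3 lower (median 1.09), beside the same shares. *Tead4*, which is needed for trophectoderm, rose from 0.149 to 76.8 CPM and *Gata4* from 15.7 to 83.9 CPM, and *Gata3* fell from 77.1 to 4.81 CPM and *Gata6* from 7.34 to 1.76 CPM. Of 24 tested family relatives of the members 13 were higher and 10 lower (median 0.58), near those shares, among them *Klf9* (0.325 to 27.6 CPM) and *Sox15* (4.79 to 111 CPM) upward and *Tfap2b* (35.8 to 4.17 CPM) and *Pou2f1* (68.9 to 12.8 CPM) downward. Several of these share their span with another gene, such as *Sox15* with *Mpdu1*, *Stat3* with *Stat5a* and *Tead4* with a pseudogene, and reads there can be split between both.

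The IP was compared with the input at each stage on CPM scaled over all 18 SLIM-seq libraries, which differ from those of the 9 inputs. At L2C 2 of 10 members were higher (*Sox2* and *Klf4*) and 5 lower (*Tfap2c*, *Esrrb*, *Pou5f1*, *Klf17* and *Sall4*), beside 22.0% of all genes in either direction. At MII 2 were higher (*Sox2* and *Nr5a2*, beside 17.7%) and 4 lower (beside 21.0%), and at L1C 1 was higher (*Sox2*, beside 15.8%) and 4 lower (beside 18.2%). *Sox2* did not pass the filter in the inputs alone and entered this fit through its IP libraries, where it is high, so its calls are a description and not support. Without it 1 of 9 members was higher at MII, 0 at L1C and 1 at L2C by edgeR, while at L1C 1 (*Klf5*) was higher by DESeq2 or at an unadjusted p under 0.05 in edgeR. The 4 lower members at MII and L1C were *Tfap2c*, *Esrrb*, *Pou5f1* and *Klf17*. In the order of the stages, the members had a median log2 IP/input of -0.51, -0.39 and -0.27, against 0, 0.07 and 0.09 for all genes. IP/input is relative to the other RNAs, and a value below 0 does not show the absence of the mark. The thresholds of the study for tagged genes (a log2 IP/input above 0, an unadjusted p under 0.05 and more than 1 count in each input) were applied to the edgeR fit. The study used DESeq2, with a further rule for genes without a P value and a filter on the number of replicates, neither applied here. The thresholds were met by *Sox2*, *Nr5a2* and *Klf4* at MII (3 members, beside 19.2% of genes), *Sox2* and *Klf5* at L1C (2, beside 18.6%) and *Sox2* and *Klf4* at L2C (2, beside 23.9%). Under scaling to library size alone the median gene moved to 0.20, 0.37 and 0.34, and the counts turned to 3 higher and 1 lower at L1C and 3 higher and 3 lower at L2C, with 3 higher and 4 lower at MII. The calls of *Klf17*, *Esrrb* and *Pou5f1* at L1C and of *Klf17* and *Sall4* at L2C were lost, and *Nr5a2* at L1C (log2 0.50, edgeR adjusted p = 0.00055) and L2C (0.43, edgeR adjusted p = 0.0012), *Klf5* at L1C (edgeR adjusted p = 0.018) and *Klf4* at MII (0.92, edgeR adjusted p = 0.019) were called higher. The balance of higher and lower members thus depends on the scaling.

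**Figure D2:**
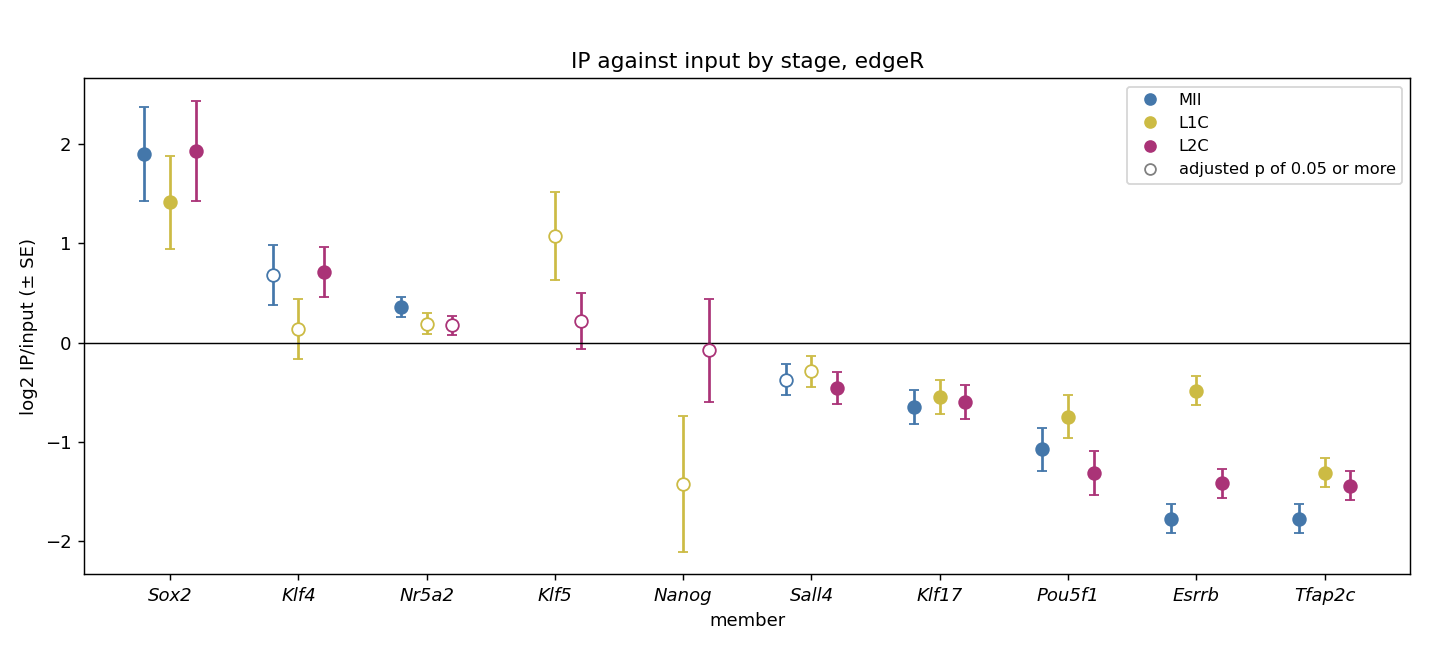
log2 IP/input of the 10 members at MII, L1C and L2C from edgeR, with SE bars; filled points have an adjusted p under 0.05, and *Klf5* and *Nanog* are not drawn at MII, where they had at most 6 counts per library. *Sox2* lies above 0 at the 3 stages (1.90, 1.41 and 1.93), and *Tfap2c*, *Esrrb*, *Pou5f1* and *Klf17* lie below 0.

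*Sox2* had the highest IP/input of the members with a value at MII and L2C, on few counts and with the limit given above. At L1C its first place over *Klf5* was not stable: without L1C input 2 *Klf5* was at 1.51 and *Sox2* at 1.30. It had 9, 6 and 6 counts in MII inputs and 33, 23 and 26 in MII IPs, which is 0.475, 0.36 and 0.402 CPM against 1.89, 1.19 and 1.6 CPM. All IPs lay above all inputs (log2 1.90 ± 0.47, edgeR adjusted p = 0.0033). At L2C inputs held 5, 7 and 3 counts and IPs 34, 10 and 21 (1.93 ± 0.50, edgeR adjusted p = 0.0045). At L1C, where IP 3 had 60 counts and IPs 1 and 2 had 15 and 19, the value of 1.41 ± 0.47 (edgeR adjusted p = 0.026) fell to 0.82 without IP 3 and was also not called without input 1 or 2. Of the counts of *Sox2* and *Sox2ot* together, *Sox2* took 1.75% to 2.01% in MII inputs and 4.81% to 8.52% in MII IPs. At L2C it took 0.278% to 1.44% and 3.25% to 3.79%. How reads were split between these 2 spans was not tested. *Klf4* stood at 6.8, 7.22 and 7.5 CPM in L2C inputs and 13.5, 11.5 and 10.2 CPM in L2C IPs, and these did not overlap (0.71 ± 0.25, edgeR adjusted p = 0.026). The call was lost without any one of the L2C inputs or without IP 1 (edgeR adjusted p = 0.06 to 0.11). *Nr5a2* was slightly higher in the IP at MII, with 34.2, 32.5 and 31.2 CPM against 27.3, 24.0 and 25.3 CPM (0.36 ± 0.10, edgeR adjusted p = 0.0092). This call was lost without MII input 2 (edgeR adjusted p = 0.05) or without the filter on low counts (edgeR adjusted p = 0.11). The values of *Nr5a2* at L1C (0.19 ± 0.10) and L2C (0.17 ± 0.10) were not called. *Klf5* had a log2 IP/input of 1.07 ± 0.44 at L1C and 0.22 ± 0.28 at L2C and *Nanog* of -1.42 ± 0.68 and -0.08 ± 0.52, none of them called by edgeR. DESeq2 called *Klf5* higher at L1C (1.12, DESeq2 adjusted p = 0.0053), as did edgeR without the filter on low counts (edgeR adjusted p = 0.011), without L1C input 2 (edgeR adjusted p = 0.04) or without L1C IP 1 (edgeR adjusted p = 0.046).

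*Tfap2c* and *Esrrb* had the lowest IP/input of the members with a value at MII and L2C, but not at L1C. There *Esrrb* lay above *Pou5f1* and *Klf17*, and *Nanog* (-1.42 ± 0.68, not called) lay below *Tfap2c*. *Tfap2c* had 129, 159 and 162 CPM in the MII inputs against 42.2, 43.5 and 46.1 CPM in MII IPs, and 162, 180.0 and 166 CPM against 67.4, 63.8 and 55.9 CPM at L2C. Its log2 IP/input over the 3 stages was -1.77 ± 0.15, -1.31 ± 0.15 and -1.44 ± 0.15 (edgeR adjusted p = 1.5e-08, 1.2e-06 and 3.1e-07), with no overlap at any stage. *Pou5f1* was at -1.08 ± 0.22, -0.75 ± 0.22 and -1.32 ± 0.22 (edgeR adjusted p = 0.00053, 0.011 and 9.3e-05), and its IPs and inputs overlapped at L1C. *Klf17* was at -0.65 ± 0.17, -0.55 ± 0.17 and -0.60 ± 0.17 (edgeR adjusted p = 0.0054, 0.019 and 0.009). At L1C the calls of *Pou5f1*, *Klf17* and *Esrrb* were each lost on leaving out some single library: for *Pou5f1* input 2, IP 1 or IP 2, for *Klf17* input 1, input 3 or IP 3, and for *Esrrb* input 2 or 3 (edgeR adjusted p = 0.051 to 0.083). *Sall4* was at -0.46 ± 0.16 at L2C (edgeR adjusted p = 0.025), which was not called without input 2, input 3, IP 1 or IP 3 (edgeR adjusted p = 0.061 to 0.09).

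The difference of IP/input between stages was tested as an interaction. *Esrrb* was the 1 member with a called change. Its inputs fell from 125, 118 and 105 CPM at MII to 29.1, 38.7 and 40.6 CPM at L1C, whereas its IPs went from 30.7, 38.9 and 31.7 CPM to 24.1, 27.1 and 26.3 CPM. At L2C inputs were at 32.1, 37.1 and 32.9 CPM and IPs at 13.6, 10.6 and 13.8 CPM. The log2 IP/input was therefore -1.77 ± 0.15, -0.48 ± 0.14 and -1.42 ± 0.15, a rise of 1.29 ± 0.20 from MII to L1C (edgeR adjusted p = 0.00038, beside 3.13% of all genes that rose) and a fall of 0.94 on the log2 scale from L1C to L2C (SE 0.20, edgeR adjusted p = 0.0072, beside 4.47% that fell). Leaving out each library in turn gave 1.15 to 1.40 for the first step. The change from MII to L2C, 0.36 ± 0.20, was not called (edgeR adjusted p = 0.24). From MII to L2C 0 members were called by edgeR or DESeq2, and 0 had an unadjusted p under 0.05 in edgeR, beside 11.1% of genes that rose and 9.21% that fell. For L1C to L2C 0 members were called higher (beside 5.00%) and for MII to L1C 0 lower (beside 4.21%), by both tools and also at an unadjusted p under 0.05 in edgeR.

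**Figure D3:**
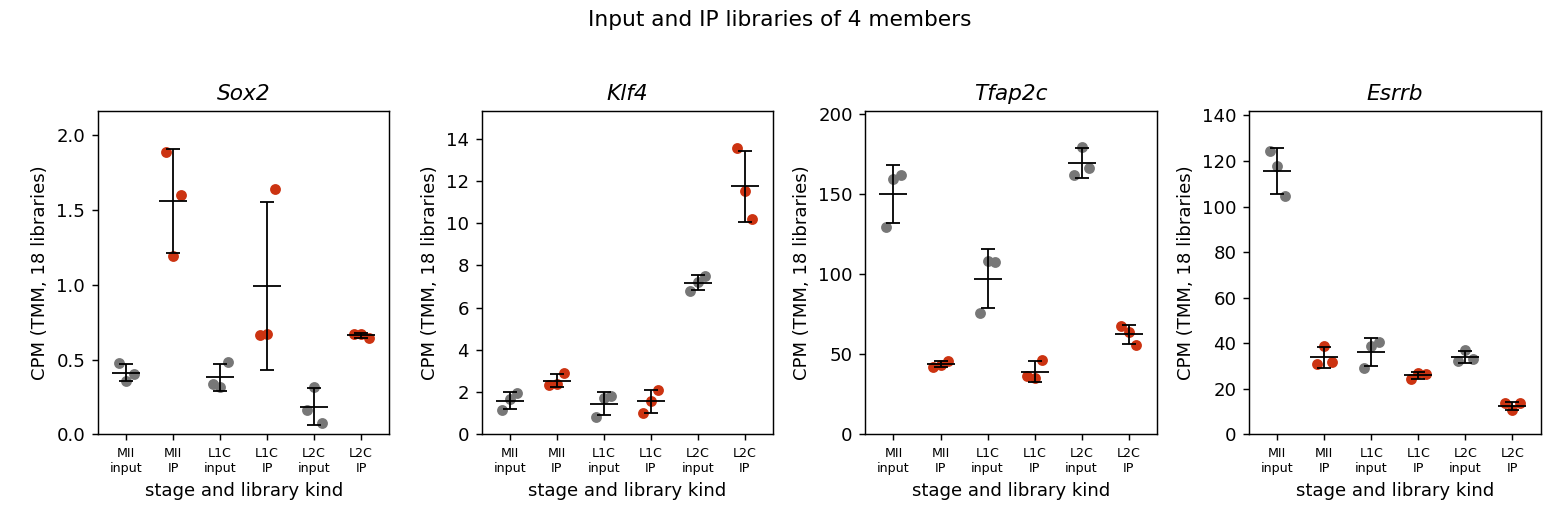
CPM (TMM over 18 libraries, axes from 0 and different for each gene) of *Sox2*, *Klf4*, *Tfap2c* and *Esrrb* in input (grey) and IP (red) libraries at each stage; points are libraries, the dash is the mean and the bar its SD. *Tfap2c* IPs lie below its inputs at each stage, and the gap of *Esrrb* is narrow at L1C, 24.1 to 27.1 CPM in the IP against 29.1 to 40.6 CPM in the input.

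The sequence around GGACT was read from the mRNA model of each member with the longest coding sequence, on GRCm38. The windows of 21 bases hold the GGACT closest to the stop codon in the 2 members higher in the IP at L2C and in 4 of the 5 that were lower, with GGACT in capitals. *Klf17*, the other lower member, has none.
Sox2: tgagggctGGACTgcgaactg
Klf4: acatgcccGGACTtacaaaat
Tfap2c: ctagcacgGGACTtcgcctat
Esrrb: gcgctgcaGGACTatgagctg
Pou5f1: ctcaggttGGACTgggcctag
Sall4: aacagttgGGACTcattggac
The *Sox2* window (chr3:34651373-34651393, plus strand) lies in the 3′ UTR with its GGACT 11 bases after the last coding base, and that of *Klf4* (chr4:55527794-55527814, minus strand) in the 3′ UTR 324 bases after it. Those of *Tfap2c* (chr2:172556079-172556099, plus strand), *Esrrb* (chr12:86518880-86518900, plus strand) and *Pou5f1* (chr17:35506317-35506337, plus strand) are coding, 403, 172 and 828 bases before it, and that of *Sall4* (chr2:168749595-168749615, minus strand) is in the 3′ UTR, 427 bases after it. Depletion from the IP did not go with fewer motifs in every member. *Klf17* has no GGACT in its 2400 bases and *Pou5f1* has 1 in 1362 bases, or 0.734 per kilobase, but *Esrrb* has 8 (1.91 per kilobase), more per length than *Sox2* (3, or 1.46 per kilobase) or *Klf4* (5, or 1.65 per kilobase). *Nr5a2* had the most, 11 sites or 2.32 per kilobase. *Nanog* had 1.81, *Tfap2c* 1.01, *Sall4* 0.986 and *Klf5* 0.895 per kilobase. Among all mRNAs tested the median was 1.05 per kilobase. It was 0.925 in those higher in the IP at L2C and 1.15 in those lower in it. The files hold 1 value per gene and do not locate m6A within a transcript, and a GGACT is a match of letters, not a mark.

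The question of the KD experiment was which transcripts at L2C depend on *Ythdc1*. *Ythdc1* itself had 1080, 1098 and 994 CPM in Ctrl and 523, 541 and 519 CPM in KD (log2 -1.004 ± 0.06, edgeR adjusted p = 1.3e-10), a level 2.01-fold lower that left all KD libraries below all Ctrl libraries. CPM in the merged table are scaled to the counts within it. Of the 7 members in the table, 4 were higher in KD (*Sall4*, *Tfap2c*, *Nr5a2* and *Sox2*), beside 33.5% of all genes tested, and 2 were lower (*Nanog* and *Klf17*), beside 37.4%. Of the 3 members beyond it, *Klf5* and *Esrrb* were higher, beside 30.5%, and none was lower, beside 36.4%. The median log2 change was 0.84 for the 7 members and 0.73 for the 3, against -0.06 and -0.09 for all genes tested in each fit. Under the thresholds of the study applied to the edgeR fit, an unadjusted p under 0.05 and a log2 change of more than 1, *Sall4*, *Tfap2c* and *Sox2* were higher (3 of 7, beside 14.7% of genes) and *Nanog* was lower (1 of 7, beside 22.5%). None of the 3 members beyond the table passed that rule upward (beside 14.4%) or downward (beside 24.5%), while edgeR called 2 of them. *Nanog* entered the fit of the merged table only through Ctrl, where it is high, so its lower calls are a description and not support.

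**Figure D4:**
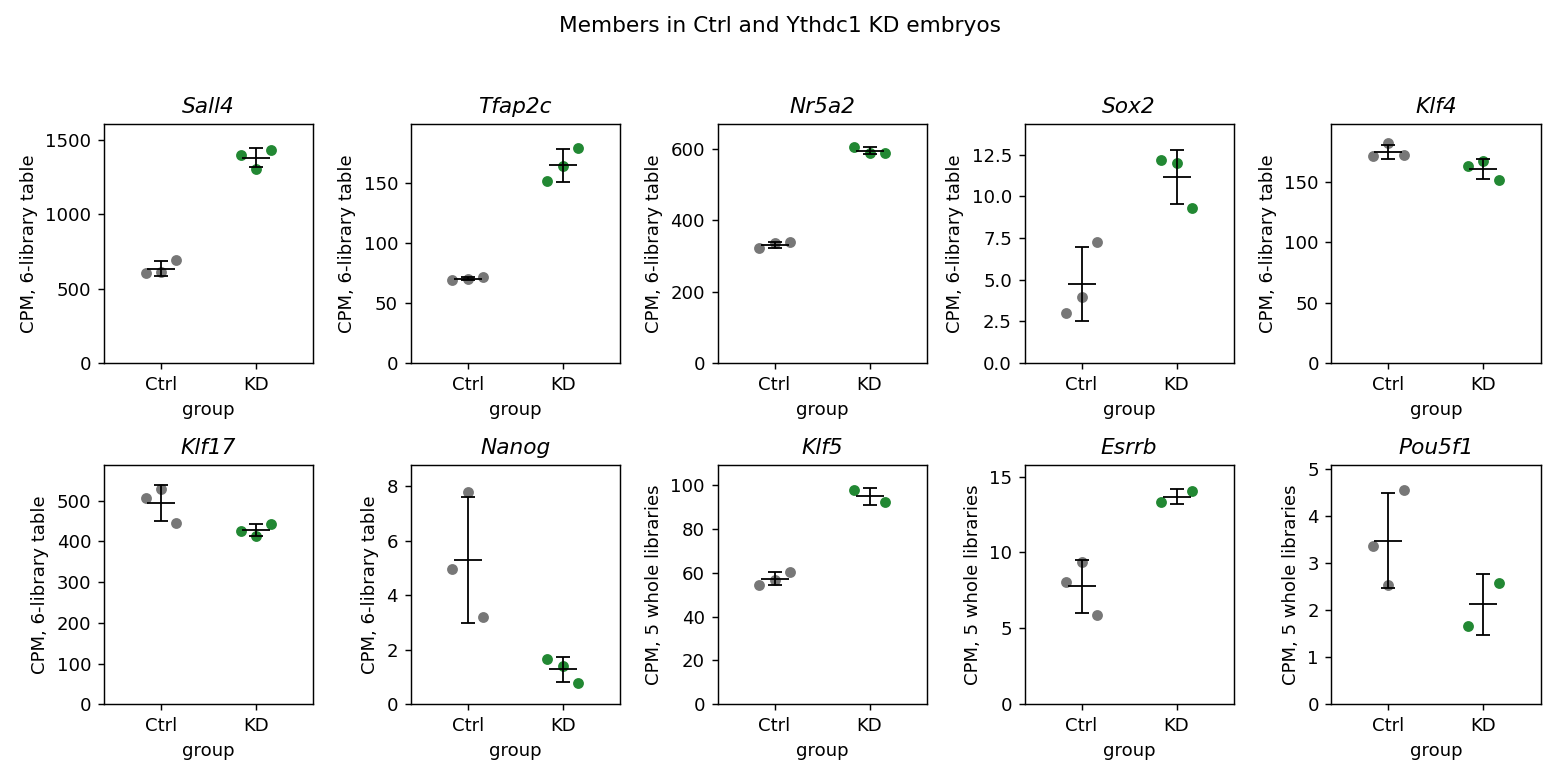
CPM of the 10 members in Ctrl and KD embryos at L2C, from the 6-library table for 7 genes and from 5 whole libraries for *Klf5*, *Esrrb* and *Pou5f1* (axes from 0, different for each gene); points are libraries, the dash is the mean and the bar its SD. KD libraries lie above Ctrl for *Sall4*, *Tfap2c*, *Nr5a2*, *Sox2*, *Klf5* and *Esrrb*, below Ctrl for *Nanog*, *Klf17* and *Klf4*, and overlap for *Pou5f1*.

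*Sall4* had 601, 610 and 692 CPM in Ctrl and 1398, 1306 and 1432 CPM in KD (log2 1.12 ± 0.07, edgeR adjusted p = 8.5e-11). *Tfap2c* had 69.4, 69.5 and 71.6 CPM in Ctrl and 151, 164 and 179 CPM in KD (1.23 ± 0.09, edgeR adjusted p = 1.8e-09). *Nr5a2* had 322, 335 and 337.5 CPM in Ctrl and 606, 589 and 589 CPM in KD (0.84 ± 0.06, edgeR adjusted p = 1.4e-09). The groups of these 3 genes were apart by far more than the spread within them, and each kept its call at an adjusted p under 0.05 in the 11 other fits. *Sox2* was higher on low counts, 17, 20 and 25 in Ctrl and 51, 43 and 48 in KD, or 3.02, 3.98 and 7.24 CPM against 12.2, 12.0 and 9.29 CPM (1.28 ± 0.33, edgeR adjusted p = 0.0018). *Klf5* had 54.6, 56.8 and 60.5 CPM in Ctrl and 97.6 and 92.1 CPM in 2 KD libraries (0.73 ± 0.09, edgeR adjusted p = 6.4e-06). *Esrrb* had 8.06, 9.34 and 5.87 CPM in Ctrl and 13.3 and 14.0 CPM in KD (0.80 ± 0.20, edgeR adjusted p = 0.002).

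*Nanog* showed the reverse, with 28, 39 and 11 counts in Ctrl and 7, 5 and 4 in KD, or 4.97, 7.77 and 3.19 CPM against 1.67, 1.39 and 0.775 CPM. The groups did not overlap, and the log2 change was -2.10 ± 0.46 (edgeR adjusted p = 0.00051). *Nanog* passed the filter on low counts only through the Ctrl libraries, where it is high, so this call is a description and not support. *Klf17* was called lower by a small step, from 507, 529 and 445 CPM to 426, 414 and 443 CPM (-0.21 ± 0.07, edgeR adjusted p = 0.015). Its highest KD and lowest Ctrl libraries differed by 2 CPM after rounding, and the call was lost without KD 1, KD 2, Ctrl 1 or Ctrl 2 (edgeR adjusted p = 0.054 to 0.13). *Klf4* was at 171.5, 182 and 172 CPM in Ctrl and 164, 167 and 152 CPM in KD, which did not overlap, but the change of -0.13 ± 0.08 was not called (edgeR adjusted p = 0.17). *Pou5f1* had 49, 33 and 41 counts in Ctrl and 18 and 24 in KD (-0.70 ± 0.37, edgeR adjusted p = 0.1), and its CPM overlapped.

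Levels in the KD experiment, as exon CPM per kilobase of exon (RPKM) in the 5 whole libraries, placed *Klf17* first in Ctrl (79.0 ± 7.17 RPKM, n = 3), *Sall4* second (44.0 ± 3.32 RPKM) and *Sall4* first in KD (94.3 ± 4.94 RPKM, n = 2). *Klf4* (22.1 ± 0.752 RPKM) and *Nr5a2* (21.6 ± 0.467 RPKM) overlapped in Ctrl, and *Pou5f1* was seventh (1.54 ± 0.451 RPKM), in contrast to its place among the 4 highest members in the L2C inputs. The experiments differ in injection and in the counting of exons or of whole spans, which cannot be told apart here. For *Pou5f1* the exon counts were also made without strand over the bases shared with the antisense *Gm19553* (14.1% of its exon bases), and the part of this in its low KD and Ctrl counts was not tested.

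The KD values of the members can be read beside their course to L2C, since the experiments share no libraries. Among the 5 members called higher from MII to L2C, *Tfap2c*, *Nr5a2* and *Klf5* were higher in KD, *Nanog* was lower, with the limit given above, and *Klf4* was not called. *Tfap2c* is placed here by CPM and not by TPM. Among the 4 that fell, *Sall4* and *Esrrb* were higher in KD, *Klf17* was lower and *Pou5f1* was not called. The markers of both stages moved with the KD as well. The 10 2-cell markers summed to 1600 to 1750 CPM in Ctrl and 555 to 614 CPM in KD, with 9 called lower by edgeR, and the 10 oocyte markers to 1650 to 1790 CPM and 797 to 875 CPM, with 7 lower and 1 higher. Of all genes tested in the 5 whole libraries, 36.4% were lower and 30.5% higher. Cumulus and granulosa markers summed to 12.3 to 13.6 CPM in Ctrl and 9.2 to 10.8 CPM in KD, with 2 of the 3 tested called lower by edgeR (median log2 -2.65), and with *Inhba*, *Fshr* and *Ptx3* at 0 in both. Their part in the changes of the members was not tested.

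In the 3 lists, tested in the 5 whole libraries, 10 of 18 pluripotency partners were higher and 4 lower in KD (median log2 change 0.55), beside 30.5% higher, 36.4% lower and a median of -0.09 over all genes tested. *Dppa5a*, an RNA-binding protein of pluripotent cells, rose from 984 to 3590 CPM and *Klf2*, a Krüppel-like factor of naive pluripotency, from 9.86 to 29.5 CPM. *Tcl1*, a cofactor of AKT kinases, fell from 3340 to 669 CPM and *Prdm14*, a transcriptional regulator of germ and pluripotent cells, from 26.5 to 4.8 CPM. Of 8 trophectoderm and primitive endoderm factors 4 were higher and 2 lower (median 0.86), with *Hand1* (1.02 to 8.46 CPM) and *Tead4* (16.4 to 31.6 CPM) upward and *Id2* (31.6 to 14.5 CPM) and *Tfap2a* (1.94 to 0.307 CPM) downward. Of 24 family relatives 6 were higher and 9 lower (median -0.30), near those shares. *Klf9* rose from 33.9 to 96.3 CPM and *Sox15* from 5.39 to 19.9 CPM, and *Klf6* fell from 9.5 to 0.139 CPM and *Pou6f1* from 7.67 to 1.64 CPM. The same lists in the IP at L2C had 3 of 19 partners higher and 5 lower, 1 of 12 lineage factors higher and 2 lower, and 4 of 25 relatives higher and 9 lower, beside 22.0% of all genes in each direction. *Zfp281* (37.1 CPM in input, 74.3 in IP), *Dppa3* (1200 and 2020 CPM), *Id2* (13.6 and 37.5 CPM), *Tfap2e* (4.03 and 9.85 CPM) and *Klf12* (1.22 and 2.19 CPM) were higher in the IP. *Stat3* (60.9 and 22.9 CPM), *Tbx3* (177 and 41.5 CPM), *Tead4* (73.8 and 33.2 CPM), *Krt8* (0.53 and 0.164 CPM), *Klf11* (224 and 96.2 CPM) and *Klf10* (37.8 and 12.9 CPM) were lower in it.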

How the data were processed

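SLIM-seq inputs and IPs and the *Ythdc1* KD experiment were analysed from the deposited tables. The authors quantified SLIM-seq reads with kallisto and deposited estimated counts and TPM values per gene, on GRCm38, with whole gene spans including introns as targets. Estimated counts were rounded. For the KD experiment the authors deposited raw counts from featureCounts v2.0.1 on exons of Ensembl release 99, without strand, after Trimmomatic and HISAT2. The merged KD table holds 25739 genes (46.4%), so members beyond it were tested in the 5 libraries that cover the annotation.

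Counts were fitted with edgeR 4.0.16 (R 4.3.3): TMM, the filter of edgeR on low counts, the quasi-likelihood test, and Benjamini-Hochberg adjustment over all genes tested, with calls at an adjusted p under 0.05. SE is the log2 change divided by the square root of F. IP and input were fitted over 18 libraries, RNA changes over the 9 inputs. DESeq2 1.42.0 was the other tool. Other tables were made with Python 3.11.15. The fits were tested on simulated data. Genes named besides the members and *Ythdc1* are, per list and comparison, up to 2 called genes per direction with the smallest P value, and the nearest gene to each member. *Sox2ot*, *Gm19553*, the genes sharing a span and single markers were added after their values were seen. Members and lists were chosen with earlier results of these data known. Alternatives were other scaling, no filter, the replicate number as a block, the libraries compared alone, other call rules and each library left out. Promoters and the genome are from RefSeq (GRCm38.p6), gene models from GENCODE M21. Depth per library limits genes with few counts, and folds against a group with at most 3 counts per library are lower bounds.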

Additional observations from a re-analysis of the deposited data

Results flagged for a closer look

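The log2 IP/input of *Esrrb* differed between stages in the test of that difference itself. It rose by 1.29 ± 0.20 from MII to L1C (edgeR adjusted p = 0.00038) and changed by -0.94 ± 0.20 from L1C to L2C (edgeR adjusted p = 0.0072), with 3 libraries per group. The means were 116 CPM in the input and 33.8 CPM in the IP at MII, 36.2 and 25.9 CPM at L1C, and 34.1 and 12.6 CPM at L2C. No other member had a called difference between stages. Leaving out each library in turn gave 1.15 to 1.40 for the first of these.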

How the results depend on the processing

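Over the values of single members, leaving out 1 library kept direction and call in 377 cases, lost the call in 34, added one in 4 and turned the direction in 8; the other alternatives did so in 366, 9, 11 and 3. The number of members lower at L1C in the IP was 4, and 1 under library size alone or with a log2 of more than 1 in size. The number higher there was 1, with 2 by DESeq2, 3 under library size alone and 2 by the tag thresholds of the study. At L2C in the IP 5 were lower, and 3 under library size alone or with a log2 of more than 1, where 1 instead of 2 was higher (3 under library size alone). At MII 1 instead of 2 was higher in the IP without the filter or with a log2 of more than 1. With that rule all genes in the IP, of 21950 tested, numbered 1847 higher at MII and 1817 lower at L1C. At L2C they numbered 2410 higher and 2524 lower. Of RNA changes with a log2 of more than 1, MII to L1C kept 2 of 4 lower and L1C to L2C 1 of 2, beside 2225 and 6304 lower of 19903 genes tested. With only the libraries compared 0 of 2 were higher from MII to L1C, beside 5165 of 16694 genes. The KD thresholds of the study left 1 of 2 lower members in the merged KD table and 0 of 2 higher ones beyond it. Under library size alone the direction turned for *Klf4* from MII to L1C (0.0099), *Sall4* in the IP at L1C (0.0083) and *Nanog* in the IP at L2C (0.17), none of them called, since the median gene moved up. The calls over all genes in the IP moved from 3877 higher and 4599 lower to 5744 and 3565 at MII, from 3463 and 3988 to 6372 and 2613 at L1C, and from 4830 and 4834 to 7315 and 3504 at L2C under that scaling. For other moves the cause was not tested.

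With each library left out, the members higher numbered 1 to 2 and the lower 3 to 4 from MII to L1C. In the IP the higher numbered 1 to 2 at MII, 0 to 2 at L1C and 1 to 2 at L2C, and the lower 2 to 4 at L1C and 4 to 5 at L2C. In KD 1 to 2 members of the merged table were lower. The log2 value ranged from -0.25 to 0.27 for *Klf4* from MII to L1C, from -0.038 to 0.24 for *Sall4* and -0.013 to 0.24 for *Esrrb* from L1C to L2C, from -0.16 to 0.32 for *Klf4* in the IP at L1C and from -0.41 to 0.18 for *Nanog* in the IP at L2C.

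The study took inputs and IPs from the same batches, but no source ties a replicate number to a batch. Correlations of the deviations of libraries with the same number were -0.25 to 0.14 between IP and input, -0.038 to 0.04 between KD and Ctrl and -0.1 to 0.24 between inputs, so the numbers were not taken as pairs. With the replicate block, 0 members were higher in the IP at L1C (*Sox2*, edgeR adjusted p = 0.051), and *Klf4* was called in the IP at MII (edgeR adjusted p = 0.042). Over all genes, the block moved the changes of IP/input called higher from MII to L1C from 686 to 380, and those from L1C to L2C from 1098 higher and 981 lower to 603 and 565. With only the libraries compared these were 444 higher and 1083 lower (923 before), and 566 and 1687. Depth limits *Sox2* and *Nanog*, with at most 48 counts per input.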

Other observations

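*Ythdc1* RNA was itself higher in the IP than in the input at each stage, with a log2 IP/input of 0.78 ± 0.17 at MII, 0.88 ± 0.17 at L1C and 1.24 ± 0.17 at L2C (edgeR adjusted p = 0.0011, 0.00046 and 8.6e-06). Its level in the inputs was 11.8 ± 1.18 CPM at MII, 10.9 ± 1.46 CPM at L1C and 18.7 ± 2.82 CPM at L2C (SD, n = 3). The rise from L1C to L2C was 0.78 ± 0.17 on the log2 scale (edgeR adjusted p = 0.00084).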
